A study of Mus musculus with 12 samples.

Results

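To examine where BMAL1 bound away from promoters and without its usual site in senescence, distal regions called only in senescent cells and lacking the canonical E-box were described. They were chosen on the peak calls of 6 BMAL1-ChIP-seq libraries. Peaks that overlapped by at least 1 bp were merged into 16818 regions. A region was kept when it held a peak in 2 or more of 3 senescent libraries and in 0 of 3 control libraries, when its midpoint lay more than 1000 bp from every protein-coding start site, and when no CACGTG lay within 100 bp of that midpoint. This left 642 regions. Of them 239 held the AP-1 site TGAGTCA or TGACTCA, called the TRE, within the same 100 bp, and 403 did not.

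The cells were primary mouse adult fibroblasts (MAFs), which the study grew from the ears of female C57BL6/J mice. Senescent cells had received 20 Gy of X-rays and control cells were sham irradiated, with n = 3 libraries per group. Both groups were kept at 3% oxygen, were treated with 100 nM dexamethasone for 2 hours to synchronize their clocks, and were fixed 12 hours after synchronization with 1% formaldehyde for 10 min. The 6 input libraries were not analysed here. Nothing in the labels says whether the 3 libraries of a group came from separate animals or cultures, so that p-values measure the spread between these libraries, which may be technical. Peak lists hold no marker by which the cell type could be checked.

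BMAL1 pairs with CLOCK, and the pair is known for binding CACGTG near clock genes and for activating them. Single-base changes of that hexamer, such as CACGTT, are also known as weaker sites of the pair, and CACATG is known as a site of related basic helix-loop-helix factors such as those of the MiT family. AP-1 is a dimer of FOS and JUN proteins that binds the TRE, mostly at distal enhancers, and it is known for its activity at enhancers of senescent fibroblasts.

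The lists held 2794, 3349 and 10601 peaks in control replicates 1, 2 and 3 and 4220, 9805 and 5053 peaks in senescent replicates 1, 2 and 3. They gave no reads, so the depth is unknown, and the lack of a peak in a library means only that none was called there. Scores were not comparable between libraries and served only to rank peaks within a list. The best score of a list had the rank percentile nearest to 0 and the weakest had 100. Control replicate 3 and senescent replicate 2 had lists longer than the others of their groups, and leaving them out changed the number of regions most. There were 1003 regions without control replicate 3 and 271 without senescent replicate 2.

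The sequences of the best-ranked regions show what the regions were like. They are the mm10 reference on the forward strand, 5′ to 3′, with capitals marking a TRE or an E-box variant on either strand. The variants marked were CACATG, which reads CATGTG on the other strand, and the hexamers CACGTT and, with other changes at the end, CACGAG as well as CACGCG. The 8 regions with a TRE that are shown were the best-ranked ones, each named by its nearest protein-coding gene and centred on its TRE.
Gm11077, chr6:140750555-140750615: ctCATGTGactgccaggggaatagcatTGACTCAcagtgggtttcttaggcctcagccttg
Rab3gap2, chr1:185193663-185193723: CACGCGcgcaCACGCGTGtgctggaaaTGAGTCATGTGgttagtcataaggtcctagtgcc
Mapk13, chr17:28766963-28767023: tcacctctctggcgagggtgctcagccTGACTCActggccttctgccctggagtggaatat
Atp2c2, chr8:119712434-119712494: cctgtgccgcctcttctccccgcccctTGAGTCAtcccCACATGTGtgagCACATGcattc
Gm26897, chr5:111975960-111976020: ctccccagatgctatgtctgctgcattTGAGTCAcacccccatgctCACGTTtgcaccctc
Daam1, chr12:71898442-71898502: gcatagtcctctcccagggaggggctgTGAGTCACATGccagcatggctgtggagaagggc
Ddit4, chr10:59918284-59918344: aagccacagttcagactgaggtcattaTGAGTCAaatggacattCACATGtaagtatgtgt
Trim2, chr3:84293798-84293858: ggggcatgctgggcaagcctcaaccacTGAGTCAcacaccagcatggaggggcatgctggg

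The 4 best-ranked regions without a TRE are shown around the E-box variant nearest to their midpoint. Of these, the Lpin2 region held 2 TREs between its ends, outside the 100 bp on either side of its midpoint.
Etv4, chr11:101807569-101807628: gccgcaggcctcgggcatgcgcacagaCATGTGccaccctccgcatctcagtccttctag
Lpin2, chr17:71142211-71142270: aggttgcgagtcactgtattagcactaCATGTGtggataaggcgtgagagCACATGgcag
Kmt2e, chr5:23394500-23394559: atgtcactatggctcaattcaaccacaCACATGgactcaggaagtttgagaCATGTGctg
Plcxd2, chr16:45970362-45970421: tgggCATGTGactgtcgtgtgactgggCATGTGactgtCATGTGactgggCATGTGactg

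Several of these sequences held an E-box variant beside the TRE. Of the 10 best-ranked regions with a TRE, 8 held at least 1 of the 4 variants within 100 bp of the midpoint, and of the 10 without a TRE, 6 did. Over all the regions, 63.2% of the 239 with a TRE and 57.3% of the 403 without held a variant. At Daam1 and Rab3gap2 the last bases of the TRE were also the first bases of CACATG or CATGTG. Some copies were parts of short tandem repeats. The Trim2 region held 4 TREs, each starting 48 bp from the next, and the Plcxd2 region held 10 copies of a variant.

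The number of regions is a product of the rule and is given as a description. Across all 16818 regions, 1588 (9.44%) were called in at least 2 senescent and no control libraries. Of these, 1047 were distal, and 405 of the distal ones were left out because they held an E-box. The 642 regions were 6.81% of the 9433 distal regions without an E-box, and the opposite rule (at least 2 control and no senescent libraries) gave 808, or 8.57%. The latter are called control-only below, and 371 regions called in all 6 libraries served as a further comparison.

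At the edges of the rule, the region closest to a start site lay 1014 bp from that of Eif4ebp1, and the farthest one left out for its distance alone lay 998 bp from that of Arhgef40. The nearest E-box of a kept region ended 101 bp from the midpoint, near Irf1, and the farthest one that led to exclusion ended at 100 bp, near Epha4. There were 70 regions with an E-box in the next 100 bp, and 58 (9.03%, 95% Wilson interval 7.05% to 11.5%) held one anywhere between their ends, so that the absence of the E-box is that of a central window. Likewise, 44 of the 403 regions without a TRE in that window (10.9%) held a TRE elsewhere between their ends. The 2128 distal regions without an E-box that were called in a single senescent library and in no control library lay just outside the threshold on calls.

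Most of the regions were called in 2 libraries. All 3 senescent libraries called 225 regions (35.0%), replicates 2 and 3 alone called 240 (37.4%), replicates 1 and 2 alone 123 (19.2%), and replicates 1 and 3 alone 54 (8.41%). Of the regions with and without a TRE, 37.2% and 33.7% were called in all 3. Of the regions called in the other two libraries, senescent replicate 1 called 52.0% (44.6% to 59.4%) of those with a TRE and 46.3% (40.6% to 52.0%) of those without. For senescent replicate 2 the shares were 80.9% (72.6% to 87.2%) and 80.5% (73.8% to 85.7%), and for senescent replicate 3 they were 65.4% (57.1% to 72.9%) and 64.2% (57.5% to 70.3%). These shares come from the calls that the rule used and are a description.

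The regions ranked in the middle and lower parts of the lists. Their median rank percentile was 61.8 in senescent replicate 1, 47.7 in senescent replicate 2 and 57.8 in senescent replicate 3. Regions called in all 6 libraries ranked higher, at medians of 22.9, 12.0 and 17.9, and senescent-only distal regions with an E-box lay between, at 50.7, 36.8 and 45.8. Regions with a TRE had medians of 58.7, 41.5 and 59.6 and those without had 63.1, 51.3 and 56.5, so that the order of the pair was not the same in the 3 libraries. Because these ranks come from the same calls as the rule, they are a description without a test.

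**Figure D1:**
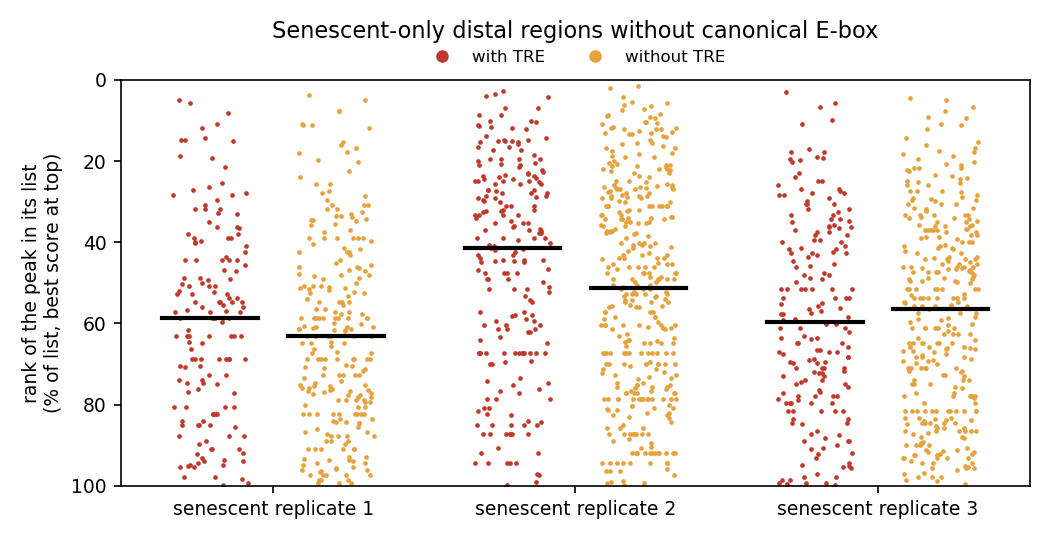
Rank of each senescent-only distal region without an E-box in the 3 senescent libraries, as a percentile of the list (vertical axis, best score at the top), with and without a TRE. Points are regions and bars are medians (58.7 and 63.1, 41.5 and 51.3, and 59.6 and 56.5), which lay close to each other beside the spread of the points.

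The TRE was found in 37.2% of the regions (239 of 642, 33.6% to 41.0%). It was found in 16.8% of control-only regions (136 of 808, 14.4% to 19.6%), in 16.2% of regions called in all 6 libraries (60 of 371, 12.8% to 20.3%), and in 23.2% of all 9433 distal regions without an E-box. In flanking windows of equal length, 200 bp, whose centres lay 2000 bp away on either side, it was found in 4.67%, 3.53% and 3.24% of the windows of the first 3 sets. Regions share libraries and are not replicates, so these intervals cover counting error only.

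The high TRE share was not particular to regions called in several senescent libraries. It was 34.6% (32.6% to 36.7%) in the 2128 regions called in a single senescent library and no control library, 36.0% in the 417 regions called in 2 senescent libraries and 39.6% in the 225 called in all 3. Where 1 control library also had a peak, it was 28.9% (24.8% to 33.4%) over the 422 regions called in 2 or 3 senescent libraries. Without a senescent call it was 15.8% in 3919 regions called in 1 control library, 18.2% in 587 called in 2 and 13.1% in 221 called in 3. Among regions called in 1 senescent library it was 26.8%, 24.4% and 20.7% where 1, 2 and 3 control libraries also had a peak. Each of these shares was above those without a senescent call and below that of the 2128 regions without a control call. Senescent-only distal regions that did hold an E-box had a TRE in 22.2% (18.4% to 26.5%), and senescent-only regions near start sites had 1 in 7.76% (5.80% to 10.3%).

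**Figure D2:**
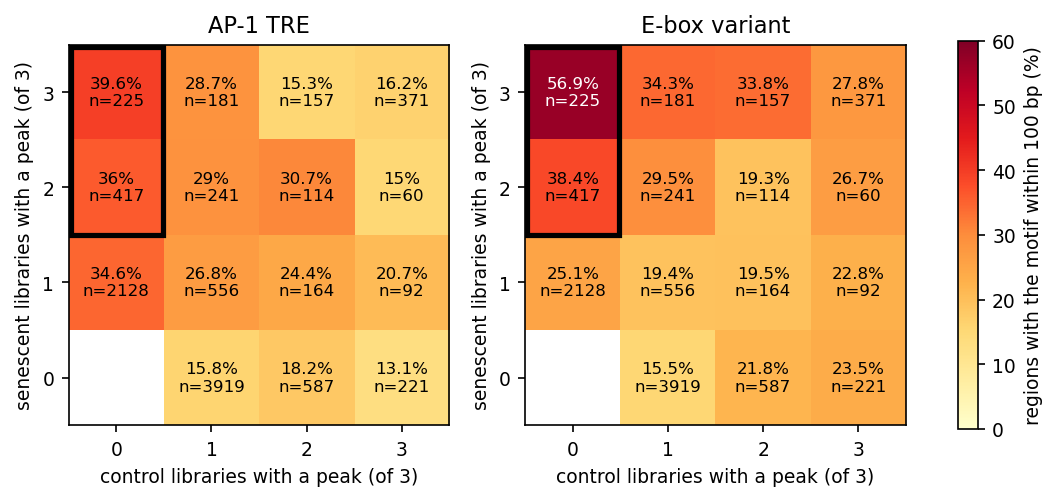
Share of distal regions without an E-box that held a TRE (left) or the E-box variant CACATG (right) within 100 bp of the midpoint, by the number of senescent (vertical axis) and control (horizontal axis) libraries with a peak, with the number of regions in each cell. The black frame marks the 642 regions, where the TRE share was 36.0% and 39.6% and the CACATG share 38.4% and 56.9% for 2 and 3 senescent libraries.

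The libraries themselves were compared, since they and not the regions are the replicates. Among distal peaks without an E-box, the TRE was found in 17.6%, 17.8% and 17.6% of those of control replicates 1, 2 and 3 and in 26.96%, 29.1% and 26.4% of those of senescent replicates 1, 2 and 3. All senescent libraries were above all control libraries. Control libraries averaged 17.7% ± 0.116 (SD, n = 3) and senescent ones 27.5% ± 1.45 (SD, n = 3), and this gap of 9.82 percentage points gave the smallest p of 3 against 3 (exact two-sided permutation test, p = 0.1). No value per library can pass 0.05 in this design. The windows 2000 bp away held a TRE in 3.496% ± 0.102 and 3.67% ± 0.229 (SD, n = 3), and there the control and senescent values overlapped (p = 0.3 by the same exact permutation test).

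When the 642 senescent-only and 808 control-only regions were left out, so that the peaks compared were not those picked by the calls, control libraries held a TRE in 18.5% ± 0.705 of the remaining peaks and senescent ones in 24.9% ± 2.88 (SD, n = 3). The difference was 6.36 percentage points (p = 0.1 by exact two-sided permutation). This gap was smaller with lists cut to equal length, at 2.9 points (p = 0.1 by exact permutation), and with both motifs searched within 50 bp, at 4.16 points (p = 0.1 by exact permutation). With only the peaks above the median score of their list it was 4.40 points and the groups overlapped (p = 0.4 by exact permutation). This comparison keeps the regions called in 1 library, of which the 2128 senescent ones had a high share. Over all distal peaks without an E-box, with the 642 and 808 regions included again, each list was also cut by rank into 4 equal parts. The difference was then 6.78, 9.56, 12.3 and 9.40 percentage points from the best to the weakest part (exact two-sided permutation tests, p = 0.1 in each). Among these same peaks, those with a TRE had a weaker median rank percentile than those without. The gap was 2.38 ± 2.13 in senescent and 2.21 ± 6.18 in control libraries (SD, n = 3), a comparison with p = 0.9 in the exact permutation test.

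**Figure D3:**
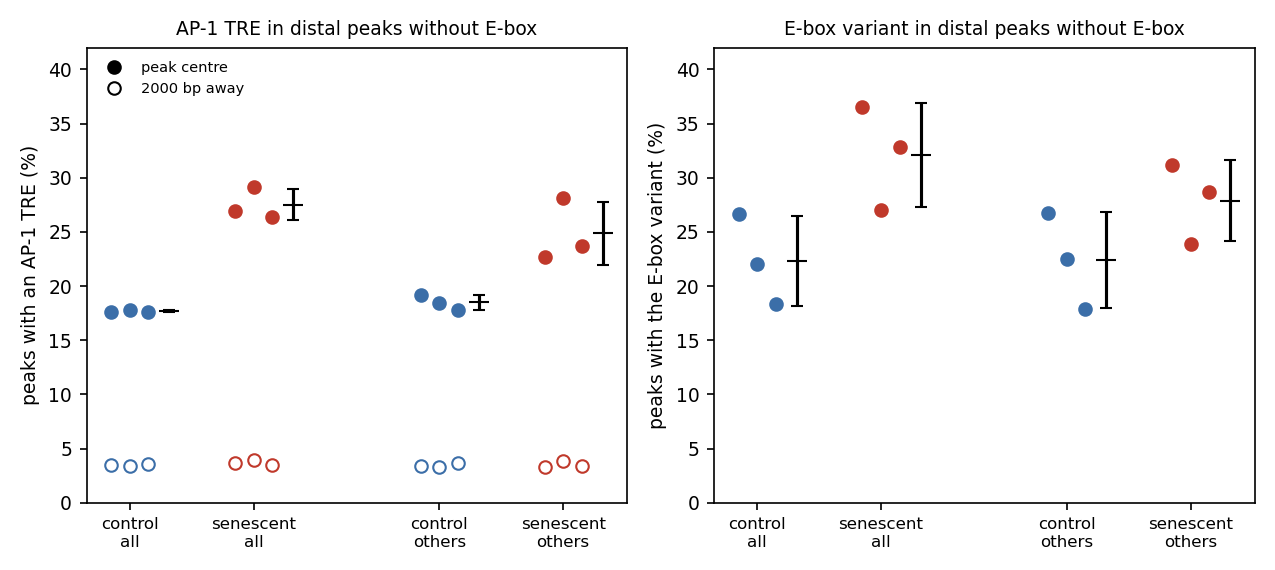
Share of distal peaks without an E-box that held a TRE (left) or CACATG (right) within 100 bp of the peak centre in control (blue) and senescent (red) libraries, for all such peaks ("all") and with the senescent-only and control-only regions left out ("others"). Points are replicates 1, 2 and 3 from left to right, bars are mean ± SD (n = 3), and open points are windows 2000 bp away. For the TRE, all senescent points lay above all control points, at 27.5% ± 1.45 and 17.7% ± 0.116.

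The TRE lay close to the centre of the regions. Its median distance from the midpoint was 33 bp in the 239 regions that held it, against 40 bp in control-only regions and 50.5 bp in regions called in all 6 libraries, which were wider. It was within 25 bp in 94 regions (39.3%) and within 50 bp in 156 (65.3%). There were 203 regions with a single TRE, 31 with 2 and 5 with 3 or more. The longer form of the TRE with TGC before it, known as a site of NFE2 and BACH factors, was found in 12 regions (5.02% of those with a TRE).

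**Figure D4:**
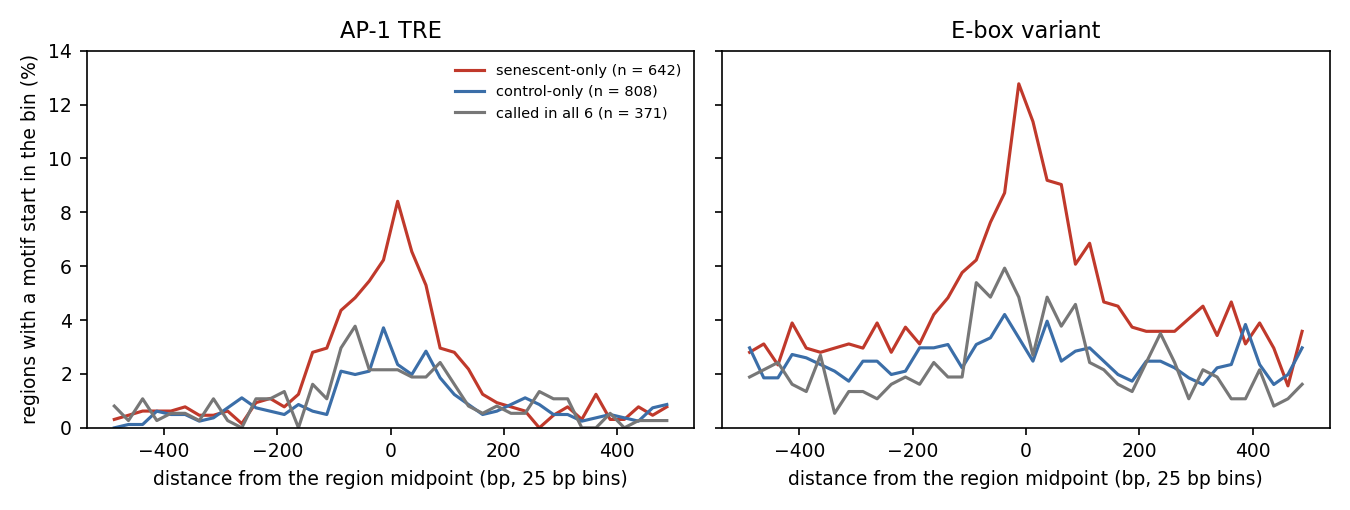
Share of regions with a TRE (left) or CACATG (right) starting in each 25 bp bin (vertical axis) by distance from the region midpoint (horizontal axis), for 642 senescent-only, 808 control-only and 371 regions called in all 6 libraries. In senescent-only regions both motifs were most frequent at the midpoint, where the highest bins held 8.41% for the TRE and 12.8% for CACATG.

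The E-box variants marked in the sequences were more frequent in the regions than 2000 bp away, although the canonical hexamer was absent by rule. Every hexamer of the form CANNTG except the canonical one was searched together with the other 3 variants marked above, 12 hexamers in all, a panel extended after the data were seen. CACATG had the highest share of them. It lay within 100 bp of the midpoint in 288 of the 642 regions (44.9%, 41.1% to 48.7%), against 14.95% of the windows 2000 bp away. This is a ratio of 3.00, below those of CACGTT (3.50), CACGAG (3.44) and CACGCG (6.73), so CACATG led in share and not in ratio. CACATG was found in 22.3% (19.5% to 25.3%) of control-only regions, 27.8% (23.5% to 32.5%) of regions called in all 6 libraries and 29.1% (24.9% to 33.7%) of the senescent-only distal regions that also held an E-box. Over the 8791 other distal regions without an E-box it was found in 20.6%.

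By the number of senescent libraries, which the rule used, the CACATG share is given as a description. It was 25.1% (23.3% to 27.03%) in regions called in 1 senescent and no control library, 38.4% (33.8% to 43.1%) in those called in 2 and 56.9% (50.4% to 63.2%) in those called in all 3. The TRE share over the same regions was 34.6%, 36.0% and 39.6%, and no test compared the pair of rises. In control-only calls the share was 15.5%, 21.8% and 23.5% for 1, 2 and 3 control libraries. Regions with a TRE held CACATG in 50.2% (120 of 239, 43.9% to 56.5%) and regions without a TRE in 41.7% (168 of 403, 37.0% to 46.6%).

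Per library, CACATG varied more than the TRE. It was found in 26.63%, 22.0% and 18.3% of the distal peaks without an E-box of control replicates 1, 2 and 3 and in 36.5%, 26.99% and 32.8% of those of senescent replicates 1, 2 and 3. The groups did not overlap, although the lowest senescent library was barely above the highest control library. The means were 22.3% ± 4.16 and 32.1% ± 4.79 (SD, n = 3), a difference of 9.78 percentage points (p = 0.1 by exact two-sided permutation, 0.144 after adjustment over 13 comparisons). Of the 12 hexamers, 8 (66.7%) did not overlap between the groups, so that separation at this p did not set CACATG apart and the sizes have to be compared. The next largest difference was 3.53 points, for CAGCTG. With the senescent-only and control-only regions left out, CACATG was found in 22.4% ± 4.43 and 27.9% ± 3.73 (SD, n = 3), with overlap between the groups (p = 0.2, exact permutation).

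The other 3 single-base variants of the E-box were less frequent. CACGTT was found in 9.81% (7.74% to 12.4%) of the regions, CACGAG in 8.57% (6.64% to 10.99%) and CACGCG in 5.76% (4.21% to 7.84%), against 2.80%, 2.49% and 0.857% of windows 2000 bp away. All 3 shares were higher in regions called in all 6 libraries (11.9%, 11.3% and 8.89%) and less frequent in control-only regions (5.32%, 4.08% and 1.98%). CACGTT, which is known as the E-box variant of the Per2 promoter, was found in 38 of 239 regions with a TRE (15.9%, 11.8% to 21.1%) and in 25 of 403 without (6.20%, 4.24% to 8.997%). CACGAG was found in 5.86% (3.52% to 9.59%) and 10.2% (7.59% to 13.5%). Not every single-base change of CACGTG was frequent beside its surroundings. CAAGTG and CACCTG, which also differ by 1 base, were searched but not counted among the variants. CAAGTG was found in 13.2% of the regions against 12.8% of windows 2000 bp away, and CACCTG in 8.10% against 14.8%.

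Counting the TRE and the 4 variants together, most regions held 1 of them. There were 151 regions (23.5%) with a TRE and a variant, 88 (13.7%) with a TRE alone, 231 (36.0%) with a variant alone and 172 (26.8%, 23.5% to 30.3%) with neither. Neither was found in 57.8% of control-only regions, 48.5% of regions called in all 6 libraries and 54.6% of the other distal regions without an E-box. CACATG, held by 288 of the 382 regions with a variant, was chosen after the data were seen. The contrast between the sets rests in part on that choice and is a description. Among the regions called in all 3 senescent libraries the share with neither was 19.1% (14.5% to 24.7%), against 30.9% (26.7% to 35.5%) of those called in 2.

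**Figure D5:**
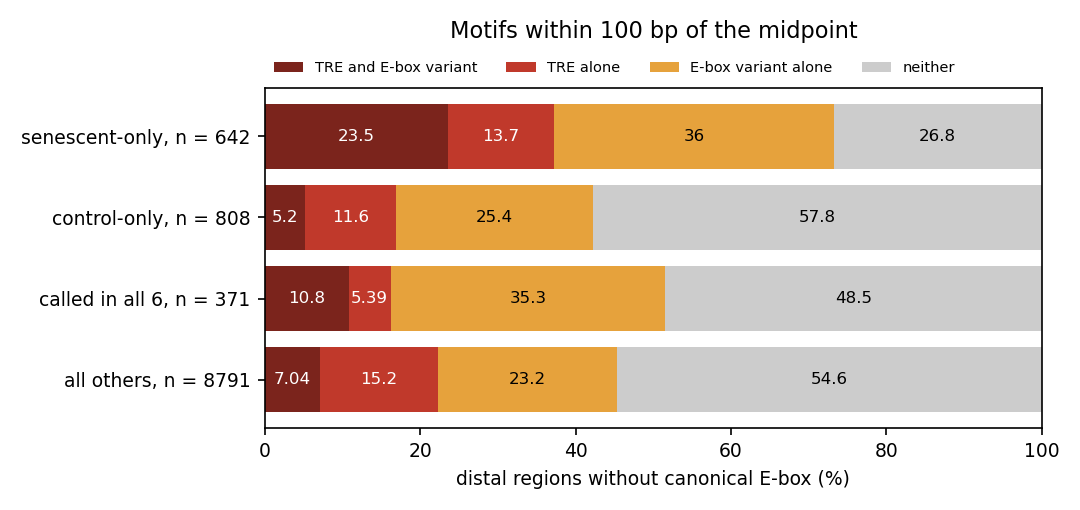
Share of distal regions without an E-box (horizontal axis) that held a TRE, an E-box variant (any of the 4 marked in the printed sequences), both or neither within 100 bp of the midpoint, by region set. The senescent-only regions had the smallest part with neither, 26.8%, and the largest with both, 23.5%, of the 4 sets drawn. Among the variants, CACATG was chosen after the data were seen.

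In the 151 regions with both, the TRE and the nearest variant were at no fixed distance. The median gap between them was 35 bp (quartiles 10 and 64 bp), 40 pairs lay within 20 bp of each other and 17 overlapped. An arrangement in which the last bases of the TRE began CACATG, as in the Daam1 sequence, or CATGTG, as in that of Rab3gap2, was found in 14 regions (2.18%, 1.30% to 3.63%). It was found in 1.11% (0.587% to 2.10%) of control-only regions, 0.809% (0.275% to 2.35%) of regions called in all 6 libraries and 0.637% of the other distal regions. The arrangement needs a TRE, and counted over regions with a TRE it was found in 14 of 239, in 9 of 136 control-only regions and in 3 of 60 regions called in all 6 libraries, so the shares over all regions follow the share with a TRE.

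Regions with a variant had a better median rank in each senescent library, both with and without a TRE. With a TRE, the median rank percentile of regions with and without a variant was 57.1 and 68.8 in senescent replicate 1, 39.0 and 47.0 in senescent replicate 2 and 57.1 and 63.5 in senescent replicate 3. Without a TRE it was 61.5 and 68.1, 47.7 and 53.9, and 53.8 and 62.0. Within either class the quartiles overlapped widely, and the values are a description.

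The other motifs of a panel of 22 were compared in the same windows. Between the groups of libraries 11 of the 22 (50%) did not overlap, each with an adjusted p of 0.2 (exact two-sided permutation tests, Benjamini-Hochberg), so only sizes distinguish them. The TRE had the largest difference. TGTGGTT, the site of RUNX factors, was lower in senescent libraries, at 7.99% ± 0.640 against 11.4% ± 0.759 (SD, n = 3), and CCAAT, the site of NF-Y, was lower at 24.1% ± 0.132 against 27.5% ± 0.288 (SD, n = 3). GGGCGG, the GC box of SP and KLF factors, was higher, at 11.3% ± 0.863 against 8.21% ± 1.15 (SD, n = 3).

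In the regions themselves TGTGGTT was close to its surroundings, at 6.54% against 4.91% in windows 2000 bp away, whereas 16.3% of control-only regions held it. GGAATG, the core of the TEAD site, was found in 21.3% of the regions, in 26.4% of control-only regions and in 9.97% of the windows 2000 bp from the regions. The GC box was found in 9.66% of the regions, in 11.7% of those without a TRE and in 6.28% of those with a TRE. Both rearranged forms of the TRE, controls with the same bases, were rare. The form GTAGTAC, counted with its partner GTACTAC, was found in 1 region of the 642, below the 1.01% of windows 2000 bp away, and was among the motifs that did not overlap between the groups of libraries, at 0.540% ± 0.135 in senescent and 0.900% ± 0.289 in control libraries (SD, n = 3). The form ATGGCAT, counted with its partner ATGCCAT, was found in 18 regions (2.80%), against 2.18% of windows 2000 bp away.

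In the 403 regions without a TRE, a TRE with 1 mismatch was more frequent than nearby. It was found in 246 of them (61.04%, 56.2% to 65.7%) against 45.4% of windows 2000 bp away. In control-only regions without a TRE it was 51.9% (48.2% to 55.7%) and in those called in all 6 libraries 46.3% (40.8% to 51.9%). Among heptamers searched after the data were seen, TGACTAA was found in 37 of the 403 (9.18%) and TGAATCA in 53 (13.2%), against 1.24% and 2.11% of windows 2000 bp away. Both differ from a TRE by a single base. ACATTCC, which holds the TEAD core on the other strand, was found in 52 (12.9% against 2.48%), and TCACATG, which holds CACATG, in 68 (16.9% against 3.35%).

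The regions lay in introns and between genes. Of the 642, 349 (54.4%) were intergenic, 278 (43.3%) intronic, 12 in UTR exons and 3 in coding exons of protein-coding genes in GENCODE M21. The median distance to a start site was 23380 bp, and 29.0% lay more than 50000 bp away. Control-only regions were farther out, at a median of 38790.5 bp with 43.6% beyond 50000 bp. Regions with a TRE lay at a median of 27694 bp and those without at 22353 bp.

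Base composition differed between the sets and moves with motif counts. The 200 bp around the midpoint had a median GC content of 50.5% in the regions, 44.5% in control-only regions and 49.5% in those called in all 6 libraries. The part of GC content in the motif shares was not tested. The regions had a median width of 289 bp, control-only regions 337.5 bp and regions called in all 6 libraries 682 bp. CACATG also occurs in simple repeats. There were 18 regions with 4 or more copies, and 233 of the 288 held a copy outside soft-masked repeats.

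Some of the regions had a control peak close by. A control peak lay within 2000 bp of 74 regions (11.5%, 9.28% to 14.2%), of which 17 held a TRE (7.11% of the 239, 4.49% to 11.1%) and 57 did not (14.1% of the 403, 11.1% to 17.9%). Within 10000 bp the share was 26.9%. Another region of the same kind lay within 50000 bp of 92 (14.3%), and a region called in all 6 libraries within 50000 bp of 99 (15.4%).

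Genes were assigned by the nearest protein-coding start site, which does not show which gene a distal region acts on, and genes with more sequence around them are nearest to more regions. The 642 regions were nearest to 587 of 21875 protein-coding genes (2.68%), and the control-only regions to 641 (2.93%). Of these, 53 were nearest to both kinds. There were 540 genes nearest to 1 region, 40 to 2 and 7 to 3 or more.

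Secreted factors of the senescence-associated secretory phenotype (SASP), the signalling and matrix proteins that senescent cells release, were the list with the highest share among those not chosen by the study. Of 32 genes, 9 (28.1%) were nearest to at least 1 of the regions and 2 (6.25%) to a control-only region, and Csf1 was nearest to both. Among them were Cxcl12 and Ccl2 (chemokines), Csf1 and Lif (cytokines), Fgf2, Ereg and Hbegf (growth factors) and Inhba (a subunit of activins), and the 9 genes had 16 regions between them. A TRE was found at 3 of the 9, Cxcl12, Lif and Ereg. No test was made of these counts.

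Fgf2 had the most regions of any gene. Its 4 regions lay within 24333 bp, all in introns of Fgf2 by the annotation, and none held a TRE within 100 bp of its midpoint. The regions spanned chr3:37378447-37378736, chr3:37354147-37354371, chr3:37360786-37361120 and chr3:37370538-37370683. Their mean rank percentiles were 55.0, 69.6, 80.0 and 89.0, so all were in the weaker part of the lists, and only that at chr3:37360786-37361120 was called in all 3 senescent libraries. That region held a TRE between its ends, outside the central window.

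Both regions nearest to Lif held a TRE. That at chr11:4308639-4309050, 41750 bp downstream of the start site, was called in all 3 senescent libraries at rank percentiles of 83.9, 57.2 and 88.9 and also held CACGTT. That at chr11:4299239-4299594 was called in replicates 2 and 3 and held an E-box between its ends, outside the central window. Lif was also on the list of genes that the study names from its own comparison. Of these, 5 of 11 (Kdm6b, Smad3, Lif, Sall1 and Bmpr1b) were nearest to a region and 3 (Bmpr1b, Col2a1 and Col11a1) to a control-only region. The study names Kdm6b, Smad3, Lif and Sall1 for increased and Bmpr1b, Col2a1 and Col11a1 for decreased binding in senescence, and Bmpr1b was nearest to both kinds. The senescent-only region of Bmpr1b lay 111603 bp from its start site in an intron of Unc5c, and that of Sall1 lay 619845 bp away. That list was chosen on these samples and is not independent evidence.

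The Ereg region (chr5:91083139-91083445) was intronic, 8670 bp past the start site, held 2 TREs and was called in replicates 1 and 2. Of the regions nearest to Cxcl12, 269296 and 272890 bp downstream of its start site, that at chr6:117441247-117441686 held a TRE. The Inhba region (chr13:16016495-16016801), also intronic and 2173 bp past the start site, and the Ccl2 region (chr11:82006863-82007210), 28534 bp upstream, were called in all 3 senescent libraries without a TRE.

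Of 11 AP-1 subunits, 2 were nearest to a region and 2 others, Jun and Atf3, to a control-only region. The Fosb region (chr7:19316778-19317220), 6948 bp upstream of the start site, was called in all 3 senescent libraries at rank percentiles of 54.7, 23.4 and 36.3 and held a TRE. It also held an E-box between its ends, outside the central window. The Junb region (chr8:84981073-84981325), 2481 bp upstream, was called in replicates 2 and 3 at rank percentiles of 85.0 and 49.9 and held CACGTT and no TRE.

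In the lists of matrix and adhesion genes, more were nearest to control-only than to senescent-only regions, and this was not tested. Of 27 annotated genes of the extracellular matrix and its proteases, 4 (14.8%) were nearest to a senescent-only region (Mmp14, a membrane-bound metalloproteinase, Col5a1, Thbs1 and Ccn1) and 7 (25.9%) to a control-only region. Of 22 genes of focal adhesions and the actin cytoskeleton, the counts were 4 (Itga11, Itgb5, Myh9 and Lpp) and 9 (40.9%). The Ccn1 region (chr3:145653017-145653647), 3351 bp upstream of this matricellular gene, was among the better ranked of these, at rank percentiles of 46.1, 13.9 and 31.7, and held CACGAG.

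The remaining lists had few members. Of 24 genes of the MAPK cascade and its inhibitors, 2 were nearest to a region, Map2k6 and Dusp1, the kinase upstream of p38 and a phosphatase of the kinases. Of 15 genes of cell cycle arrest and the p53 pathway it was 1, Btg2, whose region (chr1:134065423-134065707) held a TRE and was called in all 3 senescent libraries. Of 19 core clock and clock output genes it was 1, Nfil3, a clock output repressor with 2 regions 27981 and 52689 bp upstream. Neither Nfil3 region held a TRE, and they held CACGTT and CACGAG.

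The best-ranked regions were spread over genes of many kinds. With a TRE, the region in an intron of Gm11077 (chr6:140750167-140750884) ranked 208.5, 275 and 151 in senescent replicates 1, 2 and 3, and that 10454 bp upstream of Rab3gap2 (chr1:185193409-185193917), a subunit of a GTPase-activating complex, ranked 244, 343 and 285. The region 2287 bp upstream of Mapk13 (chr17:28766758-28767261), a stress-activated kinase, ranked 636, 669 and 342. Their mean rank percentiles were 3.58, 4.97 and 9.55, among the best of the regions.

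A second group of these TRE regions lay in introns of Atp2c2, a calcium pump of the secretory pathway, Daam1, a formin, Trim2, a ubiquitin ligase, and Phldb1, and between genes near Gm26897, Ddit4 and Bclaf1. Outside the central window, the Phldb1 region also held an E-box between its ends. The region 33496 bp from Ddit4 (chr10:59918125-59918551), a stress-induced inhibitor of mTOR signalling, ranked 1113.5, 669 and 894. The Daam1 region (chr12:71898203-71898623), whose TRE overlaps CACATG, ranked 607.5, 2430.5 and 498. In these the replicates differed, and senescent replicate 2 had the lower place for Daam1.

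Without a TRE, the best-ranked region lay 22152 bp upstream of Etv4 (chr11:101807233-101807812), an ETS transcription factor, at ranks 158, 187.5 and 230. It was followed by regions 41361 bp upstream of Lpin2 (chr17:71141881-71142508), a phosphatidate phosphatase, at ranks 326.5, 145 and 252.5, and 39943 bp upstream of Kmt2e (chr5:23394218-23394777) at ranks 213, 413.5 and 342. All of these held CACATG on either strand. The others were nearest to Plcxd2, Arhgap22, Pdcd4, Cnnm4, Arhgef28, Snx29 and Irak3, the last an inhibitor of Toll-like receptor signalling, whose region (chr10:120204599-120205108) held 2 copies of CACGTT and 1 of CACGAG. Between their ends but outside the central window, the Lpin2 and Irak3 regions held a TRE, and the Cnnm4 and Arhgef28 regions held an E-box.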

How the data were processed

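BMAL1-ChIP-seq peak lists of 3 control and 3 senescent MAF libraries were used, with groups and replicate numbers from the sample titles. The authors mapped paired reads to mm10 with BWA, removed duplicates with Picard, and ran MACS2, within the HiChIP pipeline, without pooling replicates and with an FDR limit of 1%. Whether the input libraries served as the control of MACS2 is not given in the sources used here, so that a peak may be a call against input or against the local background. The labels and the methods name different BMAL1 antibody suppliers. The score the authors deposited was read from its values as the −log10 of the q-value and used only for ranks within a list, with ties at their mean rank.

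Peaks were merged with Python 3.11.15 (numpy 2.4.6, scipy 1.17.1). Sequences came from RefSeq GRCm38.p6, the mm10 assembly, through samtools 1.23.1, and start sites from GENCODE M21 basic. Motifs were exact matches on either strand lying wholly within 100 bp of a midpoint. Libraries were compared with exact two-sided permutation tests over all 20 arrangements, and shares were given 95% Wilson intervals, which cover counting error only. Steps were tested on simulated data. The members and lists were chosen with earlier results of these data known. Regions named were the 10 best-ranked with and without a TRE among those called in 3 of 3 senescent libraries, those nearest to listed genes, and genes nearest to 3 or more, of which some are not reported here. CACATG, the extended hexamer panel, the heptamers and the 1-mismatch TRE were chosen after the data were seen.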

Additional observations from a re-analysis of the deposited data

How the results depend on the processing

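The TRE share of the regions was 23.5% with both motifs searched within 50 bp and 44.5% with both searched anywhere in the region, and in control-only regions it was 8.96% and 22.9%. Regions called in 3 of 3 libraries numbered 225, with 89 holding a TRE, and the control-only TRE share was then 13.1%. Keeping only the better-scored part of each list, above its median, gave 254 regions (93 with a TRE), and lists of equal length gave 266 (102 with a TRE). CACATG, searched after the data were seen, was found in 50% of the regions under either of these alternatives and in 56.9% with 3 of 3 libraries. Leaving out a library gave 271 to 1003 regions, 108 to 340 of them with a TRE (33.9% to 39.9%), a control-only TRE share of 11.5% to 17.95%, and a CACATG share of 39.7% to 53.1% in the regions and 19.9% to 28.5% in control-only regions. The lowest count came without senescent replicate 2 and the highest without control replicate 3. The difference in TRE share per library stayed positive under all 15 alternatives run, from 6.57 to 11.7 percentage points, and from 2.9 to 8.10 points with the group-specific regions left out, where exact permutation p was 0.4 with peaks above the median score, 0.2 (5.25 points) without control replicate 3 and 0.1 under the other alternatives except the replicate block. The difference in CACATG share ranged from 7.58 to 13.6 points over 12 alternatives, with exact permutation p of 0.2 in 5 of the 6 fits that left out a library and 0.1 in the fit without senescent replicate 2. The difference between groups in the rank of peaks with a TRE changed sign, with values from -3.01 to 3.16 when a library was left out, among them -3.01 without control replicate 3, -0.697 without senescent replicate 1 and -0.161 without senescent replicate 3, and the cause was not tested. With the replicate number as a replicate block, the differences of 9.82 (TRE), 6.36 (TRE, specific regions left out), 0.165 (rank) and 9.78 (CACATG) gave exact two-sided sign permutation p values of 0.25, 0.25, 1.0 and 0.25, where 0.25 is the smallest possible. Nothing in the labels says whether the numbers pair the samples. Deviations of same-numbered libraries correlated at 0.578, -0.326 and -0.196 over the motifs. The highest correlation, 0.654, was between control replicate 3 and senescent replicate 2, which had the longest lists of their groups, so these values cannot decide it. Depth is unknown from peak lists, so a region called only in senescent libraries may have been missed in control libraries.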

Other observations

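Genes nearest to 3 of the regions included Bcl10, Fam198b, Gpx5, Tns3 and Trib1. Bcl10, an adaptor of NF-kappaB signalling, had 3 regions within 23837 bp, of which 2 held a TRE. Tns3, a tensin of focal adhesions, had 3 within 19597 bp in its own gene and none with a TRE. Trib1, a pseudokinase, had 3 over 210430 bp, of which 1 held a TRE. None of Bcl10, Gpx5, Tns3 and Trib1 was nearest to a control-only region, whereas Fam198b was nearest to 1.

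The share of distal regions without an E-box that were senescent-only was highest on chromosome 17, at 9.50% (36 of 379), and lowest on chromosome 18, at 5.09% (17 of 334), beside 6.81% over all chromosomes. These were the extremes of 20 chromosomes chosen after their values were seen, and no test was made.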
